A study of Rattus norvegicus with 12 samples.

Results

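The histone deacetylases analysed here are 10 genes of the rat, *Hdac1* to *Hdac9* and *Hdac11*, chosen by name among the 37209 genes of the count table. They were measured by poly-A RNA-Seq in punches of the central nucleus of the amygdala (CeA) from 12 wild type Sprague Dawley rats, males per the study's methods and 14 to 16 weeks old. The CIE group (rats 1 to 6) was exposed to chronic intermittent ethanol vapor, the Control group (rats 7 to 12) breathed air only, and both were killed immediately when the last exposure ended, so the CIE rats were intoxicated and not in withdrawal. The samples came from separate animals that shared cages by 3 in the study's methods, and the labels do not say which rats shared one. Each punch came from 1 hemisphere and held every cell type of the tissue, so fewer cells of a type and less RNA per cell cannot be told apart in any value given here.

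Histone deacetylases remove acetyl groups from lysines of histones and other proteins, and by this they mostly lower transcription at the genes to which they are recruited. Class I enzymes (*Hdac1*, *Hdac2*, *Hdac3*, *Hdac8*) are largely nuclear, and most of them act inside corepressor complexes. Class IIa proteins (*Hdac4*, *Hdac5*, *Hdac7*, *Hdac9*) have little catalytic activity of their own, bind MEF2 transcription factors and move between nucleus and cytoplasm when calcium-dependent kinases phosphorylate them and 14-3-3 proteins hold them in the cytoplasm. *Hdac6* (class IIb) works mostly on tubulin and other cytoplasmic proteins, and *Hdac11* is the sole class IV enzyme. Histone acetylation in the amygdala has long been studied in ethanol exposure and withdrawal, and the comparison of CIE with Control asks whether the transcripts of these enzymes differed at the end of weeks of vapor.

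For none of the 10 transcripts was a difference between CIE and Control detected. By the quasi-likelihood F test of edgeR, run two-sided on 6 rats against 6, 0 of 10 passed a nominal p of 0.05, against 8.31 percent of the 20944 genes tested, and 0 of 10 passed 5% FDR (false discovery rate, Benjamini-Hochberg over all genes tested), against 0.363 percent. In 0 of 10 did the rats of the groups not overlap, against 0.893 percent of the genes tested. DESeq2 also gave 0 of 10 at either threshold (9.22 percent of all genes at the nominal one). limma-voom with sample quality weights gave 0 at 5% FDR and 1 of 10 at the nominal threshold (*Hdac11*), below its 17.2 percent of all genes. All 10 passed the filter on low counts, and the smallest count of any member in any rat was 492 (*Hdac1*, Control rat 11). The fitted log2 fold changes (CIE minus Control) lay between -0.10 (*Hdac11*) and 0.15 (*Hdac8*), 4 of them above 0 and 6 below, with a median of -0.01. Over all genes tested the median log2 fold change was 0.00096 and its median size 0.106, and the median size over the 10 members was 0.047. The genes tested were not matched to the members in expression level, so the smaller size is not shown to be a family trait. The 95% intervals reached from -27.0% to 39.9% at the widest, both bounds being those of *Hdac9*. A p that misses the threshold does not show that the groups were equal, so the interval is given for each gene.

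Of the whole table, 1740 genes passed the nominal threshold and 76 passed 5% FDR. Total counts were 61978486 to 78441691 per CIE rat and 39082548 to 95647601 per Control rat. These totals are above the reads per sample that the study's methods state, so a count may not be 1 read pair. Expression is given as CPM (counts scaled to library size) with TMM normalization, which sets the libraries on 1 scale from the bulk of their genes. CPM does not allow for transcript length, so levels are compared between rats and never between genes. The tissue label was checked on markers: *Gad1*, *Gad2* and *Slc32a1* of GABA neurons ranged from 340.0 to 679.6 CPM over the rats, and *Prkcd* and *Sst* of CeA neurons were detected in every rat (22.7 to 46.3 and 104.5 to 260.8 CPM). *Crh* ranged from 3.76 to 9.86 CPM, *Nts* from 18.7 to 45.0 CPM and *Penk* from 266.6 to 1657.6 CPM. Punches differed in markers of other neurons, as *Slc17a7* of cortical glutamatergic neurons ranged from 3.66 to 348.4 CPM and *Adora2a* of striatal projection neurons from 9.81 to 400.4 CPM. Whether this came from neighbouring tissue in the punch was not tested. Scores for these cells (the mean log2 CPM of their markers) were highest in CIE rats 1, 2 and 4 and Control rat 10 for the cortical markers, and in CIE rat 2 and Control rat 10 for the striatal markers. The 10 cortical markers were all higher in the CIE group in the fitted log2 fold change (median 1.42), 3 of them past the nominal threshold and 0 past 5% FDR, and the group ranges of their summed level overlapped (517 to 1227 CPM in CIE, 470 to 1164 CPM in Control). Of 11 central amygdala markers tested, 8 were lower and 3 higher in CIE (median -0.07), 2 of the lower past the nominal threshold and 0 past 5% FDR. Their summed level was 1811 to 3245 CPM in CIE and 2017 to 3735 CPM in Control.

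To show what lies upstream of the steadiest and the most variable members, the 250 bases before the annotated start are given for 4 genes, read from RefSeq on the rat build GRCr8 and written 5′ to 3′ on the strand of the gene. *Hdac6* varied least and *Hdac9* most between rats, *Hdac4* was the class IIa gene that varied most closely with *Hdac9*, and *Hdac2* belonged to the pair with the highest Pearson's r of the family. Capitals mark the GC box (GGGCGG, read as CCGCCC on the other strand) and the CCAAT box (read as ATTGG on the other strand). The TATA box (TATAAA, either strand) was searched too and was in 0 of the 9 member promoters of the RefSeq table.
Hdac6, chrX:17222925-17223174, plus strand: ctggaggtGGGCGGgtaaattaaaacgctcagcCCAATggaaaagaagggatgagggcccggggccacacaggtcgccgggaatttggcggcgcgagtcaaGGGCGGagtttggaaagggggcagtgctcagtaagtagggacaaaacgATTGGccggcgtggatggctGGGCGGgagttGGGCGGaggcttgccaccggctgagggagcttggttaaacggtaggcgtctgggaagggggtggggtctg
Hdac9, chr6:57052572-57052821, minus strand: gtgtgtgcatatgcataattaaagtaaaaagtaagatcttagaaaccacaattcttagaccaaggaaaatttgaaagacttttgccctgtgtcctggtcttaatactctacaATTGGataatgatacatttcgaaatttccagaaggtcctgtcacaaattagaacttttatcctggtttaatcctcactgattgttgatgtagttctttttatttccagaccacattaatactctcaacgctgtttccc
Hdac4, chr9:100197638-100197887, minus strand: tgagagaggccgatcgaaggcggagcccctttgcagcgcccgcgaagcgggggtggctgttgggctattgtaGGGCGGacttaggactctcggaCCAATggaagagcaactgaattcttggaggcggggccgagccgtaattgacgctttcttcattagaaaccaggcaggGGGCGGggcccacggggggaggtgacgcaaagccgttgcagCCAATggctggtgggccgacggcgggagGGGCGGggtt
Hdac2, chr20:42102877-42103126, plus strand: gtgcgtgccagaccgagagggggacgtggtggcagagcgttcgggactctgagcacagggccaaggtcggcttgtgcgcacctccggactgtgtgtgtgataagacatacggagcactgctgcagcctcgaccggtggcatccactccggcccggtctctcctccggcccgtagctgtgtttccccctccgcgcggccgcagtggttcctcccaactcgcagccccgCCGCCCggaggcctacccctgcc

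The *Hdac6* window held 4 GC boxes and 2 CCAAT boxes at 62.4% G and C, and that of *Hdac4* held 3 GC boxes and 2 CCAAT boxes at 64.4%. The *Hdac2* window held 1 GC box and no CCAAT box at 68.8%, with 23 CpG dinucleotides. The *Hdac9* window was of another kind, with no GC box, 1 CCAAT box on the reverse strand, 34.4% G and C and 2 CpG dinucleotides, and the *Hdac8* window was near it in composition (38.8%, 2 CpG, none of these boxes). Among all 33469 promoters of the same length, 30.5% held a GC box, 34.0% a CCAAT box and 12.9% a TATA box, and the median was 51.2% G and C with 5 CpG. These matches describe letters in 1 annotated window per gene, and *Hdac11* is not in the table. Whether they bear on the spread of these transcripts between rats was not tested.

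Among class I genes, *Hdac1* and *Hdac2* encode the paired catalytic subunits of the SIN3, NuRD and CoREST complexes. *Hdac1* ranged from 9.85 to 15.3 CPM in CIE rats (median 12.3) and from 10.3 to 16.0 CPM in Control rats (median 13.0). The ranges almost coincided, with the lowest value of each group in CIE rat 2 and Control rat 10, the rats with the highest striatal scores. The means were 12.8 ± 2.11 CPM in CIE and 13.2 ± 1.88 CPM in Control (SD, n = 6 each), a log2 fold change of -0.05 (SE 0.12, 95% interval -0.31 to 0.21). edgeR gave *Hdac1* an FDR of 0.945.

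The reads of *Hdac1* could not be assigned with certainty. The table also lists *Hdac1l*, named for its likeness to *Hdac1*, and RefSeq lists 18 *Hdac1* pseudogenes in the rat. *Hdac1l* took 44.6% to 48.8% of the summed counts of *Hdac1* and *Hdac1l* in a rat, a share that hardly moved between rats. The 2 genes varied together over the 12 rats (Pearson's r = 0.92 and Spearman's rho = 0.98, permutation p = 1e-05 for each, the smallest that 100000 permutations can give). Without the 2 rats farthest from the median of *Hdac1*, r was 0.87, and within the groups it was 0.95 in CIE and 0.90 in Control (exact permutation p = 0.00278 and 0.00139). *Hdac1l* had 11.1 ± 1.89 CPM in CIE and 11.8 ± 2.12 CPM in Control (SD, n = 6 each; log2 fold change -0.09, 95% interval -0.38 to 0.19). Summing both genes, an alternative chosen after their values were seen, gave a log2 fold change of -0.07 with an edgeR FDR of 0.921.

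*Hdac2* ranged from 48.9 to 70.2 CPM in CIE rats (median 59.7) and from 57.1 to 78.7 CPM in Control rats (median 59.3). Control rat 10 stood apart at 78.7 CPM, whereas the other 5 Control rats lay between 57.1 and 61.4 CPM. The means were 60.4 ± 7.77 CPM in CIE and 62.2 ± 8.25 CPM in Control (SD, n = 6 each), a log2 fold change of -0.04 (SE 0.10, 95% interval -0.26 to 0.17, edgeR FDR 0.942).

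*Hdac3*, the catalytic subunit of the NCoR/SMRT corepressor complexes, ranged from 51.6 to 68.0 CPM in CIE (median 59.5) and from 57.1 to 67.5 CPM in Control (median 60.4). Its group means were nearly the same, 60.8 ± 6.07 and 61.0 ± 3.65 CPM (SD, n = 6 each). The log2 fold change was -0.01 (SE 0.07, 95% interval -0.16 to 0.15, edgeR FDR 0.987).

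*Hdac8*, a class I enzyme that works outside the large corepressor complexes and deacetylates the cohesin subunit SMC3, had the smallest p of the family. It ranged from 11.5 to 15.6 CPM in CIE (median 14.6) and from 11.6 to 14.7 CPM in Control (median 12.4). In CIE, 3 rats lay above every Control rat, but CIE rat 3 held the lowest value of all 12. The means were 14.1 ± 1.5 and 12.8 ± 1.14 CPM (SD, n = 6 each), a log2 fold change of 0.15 (SE 0.09, 95% interval -0.04 to 0.34, edgeR FDR 0.716). A two-sided exact permutation test of the same values gave p = 0.106. Without CIE rat 3 *Hdac8* passed the nominal threshold, with a log2 fold change of 0.20 and an edgeR FDR of 0.290, in a fit where 13.3 percent of all genes did. Without the 4 rats high in cortical markers (CIE rats 1, 2 and 4, Control rat 10) the log2 fold change was 0.06, and with the cortical and striatal scores in the model 0.10 (edgeR FDR 0.999 and 0.849).

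**Figure D1:**
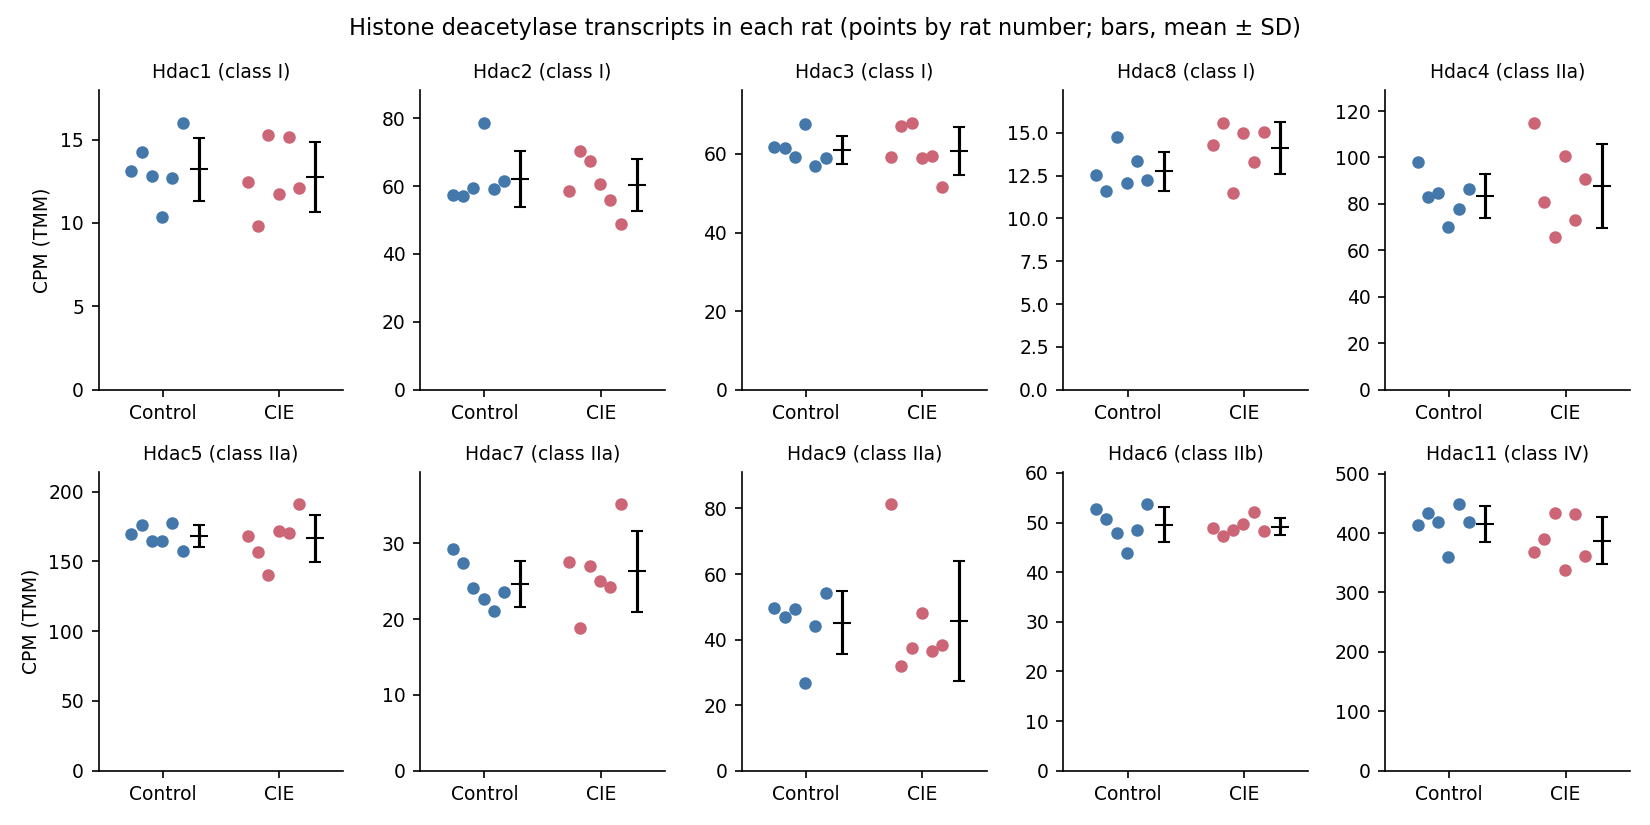
CPM (vertical axes, from 0) of the 10 transcripts in each rat, in Control (blue) and CIE (red), with points in each group set out by rat number and bars for the mean ± SD (n = 6 each). The groups overlap in all 10 panels, and *Hdac9* in CIE rat 1 (81.5 CPM) and *Hdac2* in Control rat 10 (78.7 CPM) stand far from the rest of their group.

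In the plot of CPM by rat, *Hdac6* spread least of the 10 in CIE (coefficient of variation 3.48%). Of class IIa, *Hdac4*, *Hdac7* and *Hdac9* had 20.8%, 20.3% and 40.2% in CIE. *Hdac5* of the same class had 10.2%, below the 16.5% of *Hdac1* in class I. *Hdac4*, a repressor of MEF2 that is abundant in neurons, ranged from 65.8 to 115.0 CPM in CIE (median 85.8) and from 70.0 to 98.1 CPM in Control (median 83.9). Both the highest value (CIE rat 1) and the lowest (CIE rat 3) belonged to the CIE group. The means were 87.7 ± 18.3 and 83.3 ± 9.34 CPM (SD, n = 6 each), a log2 fold change of 0.07 (SE 0.12, 95% interval -0.19 to 0.34, edgeR FDR 0.921).

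*Hdac5*, a class IIa gene whose protein leaves the nucleus upon neuronal activity, ranged from 140.2 to 191.4 CPM in CIE (median 169.3) and from 157.6 to 177.2 CPM in Control (median 166.9). Again the extremes were CIE rats, the lowest being rat 3 and the highest rat 6. The means were 166.5 ± 17.1 and 168.2 ± 7.62 CPM (SD, n = 6 each), a log2 fold change of -0.02 (SE 0.07, 95% interval -0.17 to 0.14, edgeR FDR 0.972).

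*Hdac7*, a class IIa gene best known from endothelial cells and thymocytes, ranged from 18.9 to 35.2 CPM in CIE (median 26.0) and from 21.1 to 29.2 CPM in Control (median 23.8). The means were 26.3 ± 5.35 and 24.6 ± 3.06 CPM (SD, n = 6 each), a log2 fold change of 0.09 (SE 0.13, 95% interval -0.18 to 0.37, edgeR FDR 0.897). Of 11 endothelial markers tested, 6 were lower in CIE at the nominal threshold and 2 at 5% FDR, with a median log2 fold change of -0.29. Of 7 mural markers, 4 were lower at the nominal threshold and 1 at 5% FDR (median -0.30), and of 7 erythroid markers 5 and 3 (median -1.61). The summed erythroid level was 90.3 to 285.7 CPM in CIE against 363.0 to 661.8 CPM in Control. Over all rats, *Hdac7* had a Pearson's r of -0.11 with the endothelial score (permutation p = 0.727) and 0.03 with the mural score (permutation p = 0.914). With the erythroid score r was -0.0017 (permutation p = 0.995). Within the groups the erythroid r was 0.43 in CIE and 0.52 in Control (exact permutation p = 0.42 and 0.29). Whether these cells set the level of *Hdac7* was not tested.

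*Hdac9*, a class IIa gene expressed in muscle and brain, was the most variable of the family. It ranged from 32.0 to 81.5 CPM in CIE (median 37.8) and from 26.6 to 54.1 CPM in Control (median 48.1), so that the medians and the means were ordered differently. CIE rat 1 held the highest value by far, and Control rat 10 the lowest. The means were 45.6 ± 18.3 and 45.1 ± 9.64 CPM (SD, n = 6 each), a coefficient of variation of 40.2% in CIE and 21.4% in Control. The log2 fold change was 0.02 (SE 0.22, 95% interval -0.45 to 0.48, edgeR FDR 0.990). The value of *Hdac9* depended on a few rats, and was -0.23 without CIE rat 1 alone (edgeR FDR 0.887) and -0.09 without Control rat 10 alone. When the 4 rats with a cortical score above 3.5 (CIE rats 1, 2 and 4 and Control rat 10) were left out, an alternative chosen after the values were seen, the log2 fold change of *Hdac9* was -0.37, past the nominal threshold, as were 5.40 percent of all genes in that fit, but with an edgeR FDR of 0.277. That choice drops the rats with the highest and the lowest *Hdac9*, and over the 12 rats *Hdac9* had r = 0.10 with the cortical score (permutation p = 0.772).

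*Hdac6*, the cytoplasmic tubulin deacetylase, was the steadiest. *Hdac6* ranged from 47.2 to 52.2 CPM in CIE (median 48.7) and from 43.9 to 53.8 CPM in Control (median 49.7). The highest rat was 1.23 times the lowest, against 3.06 times for *Hdac9*. The means were 49.1 ± 1.71 and 49.6 ± 3.60 CPM (SD, n = 6 each), a log2 fold change of -0.01 (SE 0.06, 95% interval -0.14 to 0.11, edgeR FDR 0.971). In percent, the interval ran from -9.08% to 7.94%, the narrowest of the 10.

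*Hdac11*, a brain-rich enzyme that removes long fatty acyl groups from lysines, had the most negative log2 fold change. It ranged from 338.4 to 433.7 CPM in CIE (median 378.6) and from 359.7 to 449.6 CPM in Control (median 418.7). In CIE, rats 3 and 5 lay near the top of the Control range and the other 4 at 389.8 CPM or less, and in Control rat 10 held the lowest value. The means were 387.1 ± 39.1 and 415.6 ± 30.4 CPM (SD, n = 6 each), a log2 fold change of -0.10 (SE 0.08, 95% interval -0.27 to 0.06, edgeR FDR 0.788). A two-sided exact permutation test gave p = 0.180. limma-voom with sample quality weights gave a log2 fold change of -0.17, past the nominal threshold but with an FDR of 0.204. When edgeR's model held both the cortical and the striatal score, the log2 fold change was -0.02 (FDR 0.973).

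**Figure D2:**
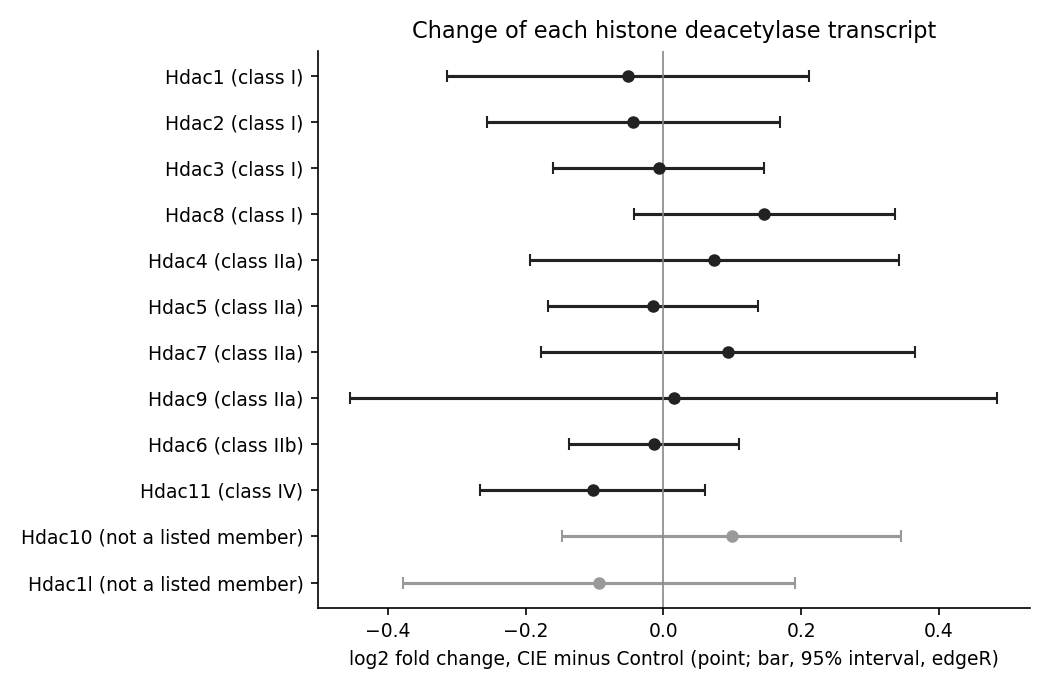
Log2 fold change (CIE minus Control, horizontal axis) of the 10 members by class, and of *Hdac10* and *Hdac1l*, which were not among the members (grey), with bars for the 95% interval from edgeR (6 rats against 6). Every interval includes 0, and the interval of *Hdac9* (-0.45 to 0.48) is the widest.

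The plot of fold changes also shows *Hdac10*, the class IIb polyamine deacetylase, which was added after the table was read. It had 12.5 ± 1.89 CPM in CIE and 11.6 ± 1.62 CPM in Control (SD, n = 6 each), a log2 fold change of 0.10 (95% interval -0.15 to 0.35, edgeR FDR 0.874). The spread of the family between rats was a little less than that of other genes, with a median coefficient of variation of 11.8% in CIE and 10.1% in Control over the 10 members, against 16.8% and 14.0% over all genes tested. Those genes were not matched to the members in expression level, and no member had fewer than 492 counts in any rat. The lower spread is therefore not shown to be a trait of the family.

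Members were then set against each other over the 12 rats, in log2 CPM, for all 45 pairs. With Pearson's r, 7 pairs had an unadjusted permutation p below 0.05 and 1 passed after Benjamini-Hochberg adjustment over the 45 pairs. With Spearman's rho, 0 pairs passed after adjustment. The 1 pair was *Hdac2* and *Hdac3*, 2 class I genes (r = 0.87, permutation p = 0.00064, adjusted p = 0.0288). Its rho was 0.46 (permutation p = 0.133), and r was 0.76 without the pair of rats most distant from the median of *Hdac2* (CIE rat 6 and Control rat 10). Within the groups r was 0.96 in CIE and 0.76 in Control (exact permutation p = 0.0167 and 0.156). The adjusted call was lost without CIE rat 2, without CIE rat 6, and without the 4 rats high in cortical markers.

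The next pairs missed the threshold after adjustment (adjusted p = 0.0544 for each). *Hdac4* and *Hdac9* of class IIa had r = 0.78 (permutation p = 0.0027) and rho = 0.78, the highest rho of the 45 pairs. Their r was 0.67 without CIE rats 1 and 3, and it was of like size within the groups, at 0.80 in CIE and 0.81 in Control (exact permutation p = 0.0347 and 0.0528). *Hdac3* and *Hdac5* varied in opposite directions (r = -0.78), but this r was -0.47 without CIE rats 3 and 6, and it was -0.95 in CIE and -0.17 in Control. *Hdac1* and *Hdac6* had r = 0.75, which was 0.68 without CIE rat 2 and Control rat 12, with 0.65 in CIE and 0.91 in Control.

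**Figure D3:**
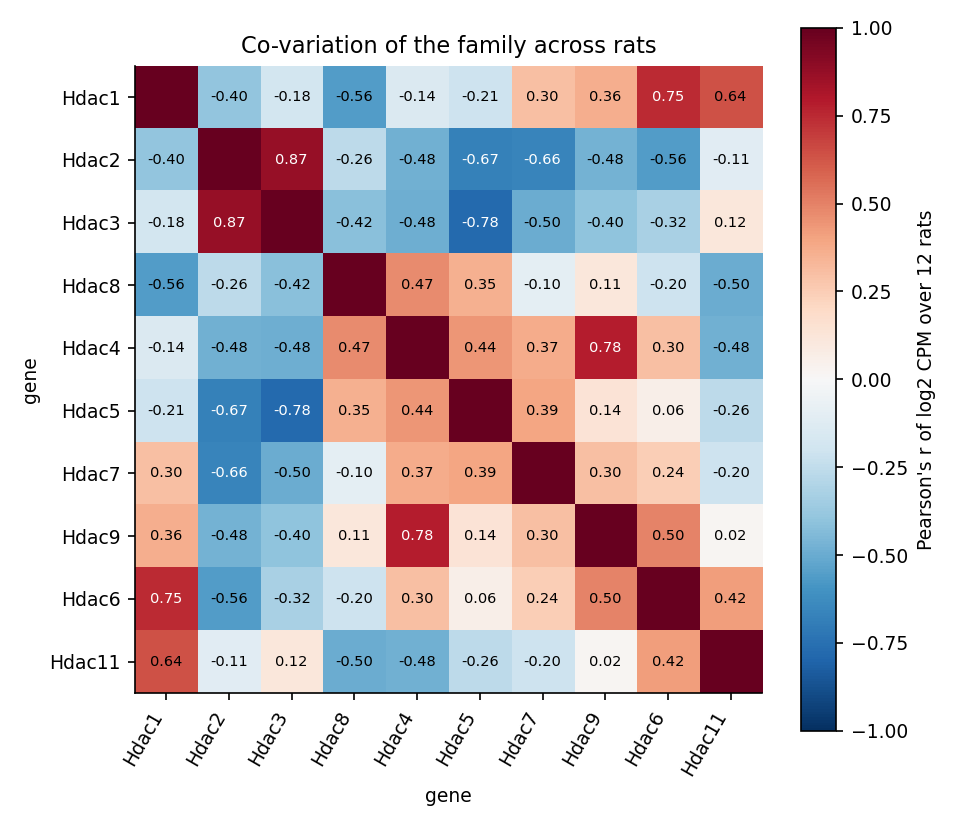
Pearson's r of log2 CPM over 12 rats for each pair of members (rows and columns are genes, red above 0 and blue below 0). *Hdac2* with *Hdac3* (0.87) is the most positive pair and *Hdac3* with *Hdac5* (-0.78) the most negative, and with Pearson's r 1 of 45 pairs passed after adjustment.

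Since punches differed in cortical and striatal markers, the members were also set against 11 marker scores, 110 pairs in all. This comparison was added after the data were seen. With Pearson's r, 13 pairs had an unadjusted permutation p below 0.05 and 1 passed after adjustment over the 110 pairs. With Spearman's rho, 0 passed. That pair was *Hdac1* and the striatal score, in opposite directions (r = -0.86, permutation p = 0.00036, adjusted p = 0.0396, rho = -0.78). With the rats of highest striatal score left out (CIE rat 2, Control rat 10), r was -0.63, and within the groups it was -0.82 in CIE and -0.92 in Control (exact permutation p = 0.0514 and 0.0125). The adjusted call was kept without CIE rat 3, CIE rat 6 or Control rat 9, and lost without any 1 of the other 9 rats or without the 4 high in cortical markers. *Hdac11* against the cortical score gave r = -0.81 and *Hdac2* against the score of central amygdala neurons gave r = 0.80. *Hdac6* against the striatal score gave r = -0.76 (rho = -0.80). Each of these pairs had an adjusted p of 0.0759. For *Hdac11*, r was -0.78 in CIE and -0.77 in Control (exact permutation p = 0.0972 and 0.0778), and -0.87 without CIE rats 1 and 2. For *Hdac2*, r was 0.61 without CIE rat 6 and Control rat 10, with 0.90 in CIE and 0.67 in Control. *Hdac2* also had r = 0.71 with the striatal score (permutation p = 0.00934, adjusted p = 0.205), and 0.19 there without CIE rat 2 and Control rat 10. The central amygdala list includes *Gad1*, *Gad2* and *Slc32a1* of GABA neurons, so its score is not of central amygdala neurons alone. For *Hdac6*, r was -0.52 without CIE rat 2 and Control rat 10, with -0.53 in CIE and -0.89 in Control (exact permutation p = 0.306 and 0.0167). Whether the makeup of the punches sets these levels was not tested.

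**Figure D4:**
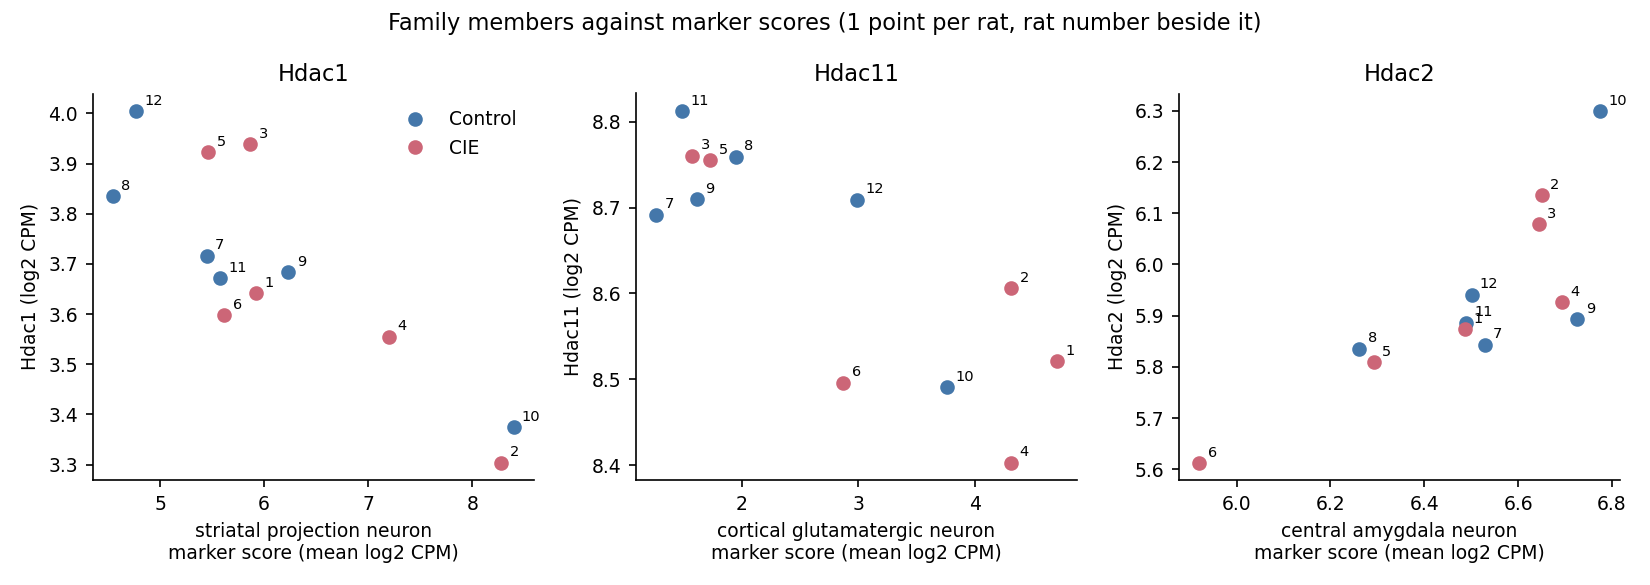
Log2 CPM of *Hdac1*, *Hdac11* and *Hdac2* (vertical axes) against the striatal, cortical and central amygdala marker scores in turn (horizontal axes, mean log2 CPM of the markers), 1 point per rat with its number, in Control (blue) and CIE (red). CIE rat 2 and Control rat 10 lie at the far end of the striatal axis with the lowest *Hdac1*, and r is -0.86 over the 12 rats in that panel.

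In the plot of members against marker scores, the groups overlap along each axis. On the cortical axis, CIE rats 1, 2 and 4 had the highest scores (4.70, 4.31 and 4.31). The lowest were those of Control rats 7 and 11 (1.26 and 1.49). By profile over the 12 rats, standardized per gene, the genes nearest to *Hdac8* were *Ahr*, *Prdm2* and *Lrp6*, with root-mean-square differences of 0.352, 0.529 and 0.521. Those nearest to *Hdac11* included *Pycrl* (0.238) and *Mtch1* (0.281). These genes were chosen for their likeness, and none of those named passed 5% FDR between CIE and Control in edgeR.

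Partners and counterparts of the deacetylases were followed as 10 lists with 79 genes, of which 78 were tested. At the nominal threshold 4 of 78 differed (5.13%, against 8.31 percent of all genes tested), 3 higher and 1 lower in CIE. At 5% FDR 1 of 78 passed, against 0.363 percent of all genes tested. The median log2 fold change of the 78 was 0.05. Among the class I complexes, 1 of 13 SIN3 genes, 1 of 12 NuRD genes, 1 of 6 CoREST genes and 0 of 5 NCoR/SMRT genes passed the nominal threshold. *Ing1*, which reads methylated histone H3 for SIN3, had a log2 fold change of 0.14 (edgeR FDR 0.575). *Mta1*, a scaffold of NuRD, had 0.11 (FDR 0.590). *Phf21a*, which reads unmethylated histone H3 for CoREST, had 0.22 (FDR 0.436). In the NCoR/SMRT list the smallest p was that of the corepressor *Ncor1* (log2 fold change 0.10, FDR 0.802).

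Of the genes whose proteins bind or phosphorylate class IIa proteins, none passed the nominal threshold. The 4 MEF2 factors had log2 fold changes above 0, with a median of 0.21, and the smallest p was that of *Mef2a* (0.27, edgeR FDR 0.694). Of 14 kinases, 12 had values above 0 (median 0.09), with the smallest p for *Camk1g* (0.24, edgeR FDR 0.711). All 6 14-3-3 genes had values below 0 (median -0.10), with the smallest p for *Ywhaq* (-0.17, edgeR FDR 0.637). These signs were the same under the other library scalings tried, but with the cortical and striatal scores in the model the values above 0 were 2 of 4 MEF2 factors, 7 of 14 kinases and 1 of 6 14-3-3 genes, and with the neuron score 1 of 4, 10 of 14 and 2 of 6. Other fits moved them too. Of the kinases, 9 of 14 were above 0 with the oligodendrocyte score or without CIE rat 2. Of the 14-3-3 genes, 2 of 6 were above 0 without CIE rat 6, and 1 of 6 under limma-voom or without Control rat 10. Of the enzymes that add acetyl groups, 0 of 10 lysine acetyltransferases passed, with the smallest p for *Kat8* (0.12, edgeR FDR 0.631), and of the BET readers of acetyl lysine 0 of 3 passed.

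The sirtuins, the NAD-dependent deacetylases, held the 1 gene that passed 5% FDR, and 1 of 7 passed the nominal threshold. *Sirt2* is a deacetylase of tubulin and histones that is abundant in myelinating oligodendrocytes. It ranged from 139.9 to 206.9 CPM in CIE and from 208.0 to 269.1 CPM in Control, so all 6 CIE rats lay below all 6 Control rats. Of all genes tested, 0.893 percent had groups that did not overlap in either direction. *Sirt2* fell from 239.7 ± 20.9 CPM in Control to 170.1 ± 22.5 CPM in CIE (SD, n = 6 each), a log2 fold change of -0.50 (SE 0.09, edgeR FDR 0.0300). Of 14 markers of myelinating oligodendrocytes, 13 were lower in CIE at the nominal threshold and 0 at 5% FDR, with a median log2 fold change of -0.58. Their summed level was 5830 to 14146 CPM in CIE and 8962 to 16791 CPM in Control, and none of the 14 was at 0. With the oligodendrocyte score as a covariate, the log2 fold change of *Sirt2* was -0.25 (nominal threshold passed, edgeR FDR 0.233). Leaving out single rats gave *Sirt2* an FDR between 0.0105 and 0.0948, highest without Control rat 9, and 5% FDR was passed in 2 of these 12 fits, those without CIE rat 6 and without Control rat 12. DESeq2 gave *Sirt2* an FDR of 0.000164 and limma-voom with sample quality weights 0.00731. It passed the nominal threshold in all 22 alternatives run for it, with an FDR of up to 0.458 (without the 4 rats high in cortical markers).

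**Figure D5:**
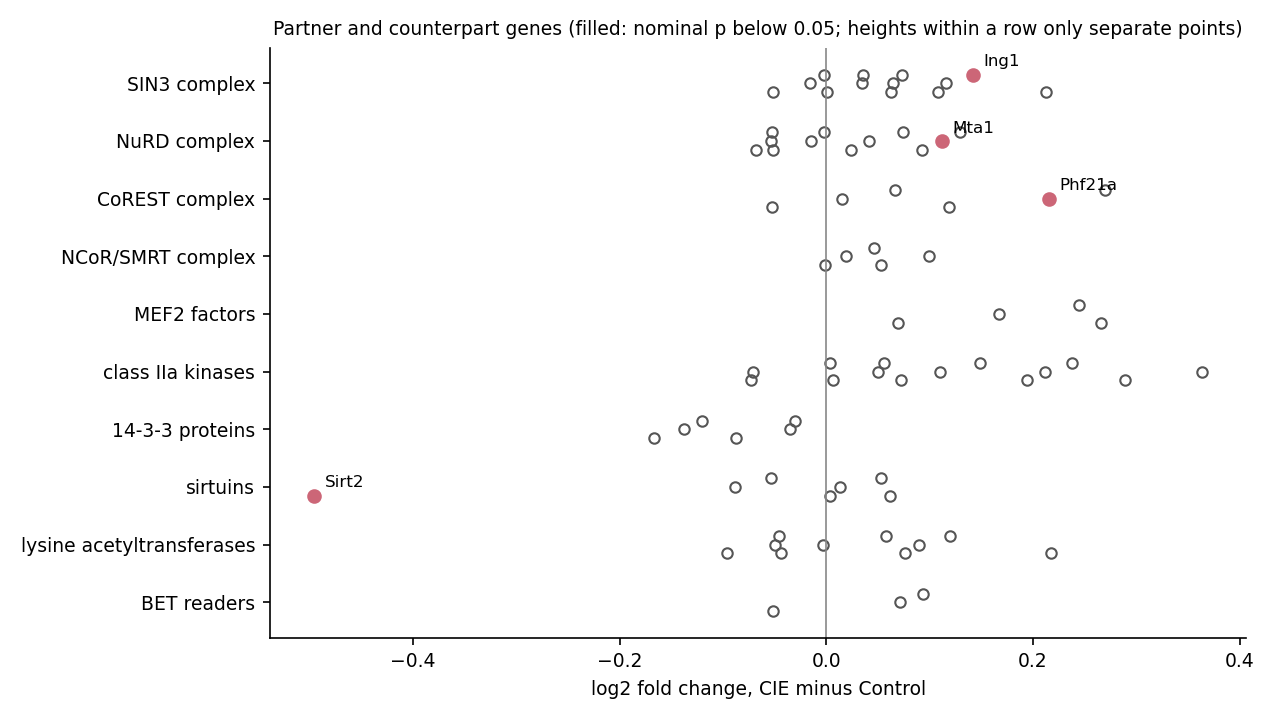
Log2 fold change (CIE minus Control, horizontal axis) of the 78 tested partner and counterpart genes by list, with *Rbbp4* and *Rbbp7* in both the SIN3 and the NuRD list. Filled points passed the nominal p of 0.05: *Ing1*, *Mta1* and *Phf21a* above 0, and *Sirt2* at -0.50, far from the other sirtuins.

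In the plot of partner genes *Sirt2* is the point farthest from 0. *Hdac6*, the other tubulin deacetylase, had the narrowest interval of the family at a log2 fold change of -0.01, in the same rats.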

How the data were processed

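Poly-A RNA of CeA punches was sequenced for 12 rats, 6 CIE and 6 Control, 1 library each. The authors aligned the reads to Rnor_6.0 using BWA and made gene counts by HTSeq. The deposited table gives these raw counts without a filter. Annotation, strand and overlap settings are not given in the sources used here, so reads shared between near copies (*Hdac1* and *Hdac1l*) or overlapping genes are uncertain. The authors tested the groups with DESeq2 1.26. Libraries of a group differed pairwise by 17.8 to 196 times what Poisson sampling gives, so none repeated another.

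The software was R 4.3.3 (edgeR 4.0.16, limma 3.58.1, DESeq2 1.42.0) and Python 3.11.15 (scipy 1.17.1, numpy 2.4.6, pandas 2.3.3, matplotlib 3.10.9). Counts went through TMM, filterByExpr and edgeR's quasi-likelihood F test without covariates, a procedure tested on simulated data. FDR is the Benjamini-Hochberg adjusted p over all genes tested. Correlations used log2 CPM with a prior count of 2 and 100000 permutations, or exact permutations within a group. For 6 rats against 6 the smallest exact permutation p is 0.00216.

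The members and all lists were chosen with earlier results of these data known. Named genes are all members, the genes of each partner list at nominal p below 0.05 or else the one with the smallest p, and the 3 genes of nearest profile for the 2 members of smallest p, leaving out symbols that begin with LOC, RGD or AABR. Of the genes this rule names, 2 are not reported here. All 10 member symbols matched RefSeq, which gave the promoter windows on GRCr8. Coordinates of the 2 builds were not mixed. The fits were repeated under 21 planned and 2 added alternatives, which changed the size factors, the filter (none, or 10 counts in each rat), the tool (DESeq2, limma-voom with sample quality weights), the covariates (marker scores) or the rats included.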

Additional observations from a re-analysis of the deposited data

Results flagged for a closer look

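Among the 20 sets of 6 rats (10 members in each group), 3 had a rat far from the rest by Dixon's ratio of the gap to the nearest rat over the whole range, with a 95% critical value of 0.625. Chance gives about 1 in 20 sets. *Hdac2* was 78.7 CPM in Control rat 10, with the nearest Control rat at 61.4 CPM (ratio 0.800). *Hdac9* was 81.5 CPM in CIE rat 1, with the nearest CIE rat at 48.0 CPM (ratio 0.677). *Hdac9* was 26.6 CPM in Control rat 10, with the nearest Control rat at 44.1 CPM (ratio 0.638). CIE rat 1 had the highest cortical score (4.70) and Control rat 10 the highest striatal score (8.40) of all 12 rats. The part of these scores in the levels was not tested rat by rat.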

How the results depend on the processing

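At 5% FDR, 0 of 10 members passed under each of the 23 alternatives (21 set beforehand and 2 added). At the nominal p, the count of 0 was 1 under limma-voom (*Hdac11*, with 3596 of all genes), 0 to 1 when each rat was left out (1 without CIE rat 3, *Hdac8*, with 2811 of all genes), and 1 when the 4 rats high in cortical markers were left out (*Hdac9*, with 1172 of all genes, chosen after seeing the data), against 1740 in the reported fit. The log2 fold changes of *Hdac8* and *Hdac11* kept their sign under every alternative run but ran from 0.06 to 0.22 and from -0.17 to -0.02 (0.12 to 0.20 and -0.14 to -0.07 with each rat left out), and those of the others changed sign in at least 1, mostly near 0. With library size only, *Hdac3*, *Hdac5* and *Hdac6* were 0.010, 0.0016 and 0.0012. *Hdac3* was 0.0020 with DESeq2's size factors and 0.0017 with DESeq2. With limma-voom, *Hdac2*, *Hdac3* and *Hdac9* were 0.0021, 0.0047 and -0.0096. With the oligodendrocyte score as a covariate, *Hdac5* and *Hdac9* were 0.13 and -0.0470. With the cortical and striatal scores, *Hdac1*, *Hdac4*, *Hdac9* and *Hdac6* were 0.0592, -0.0475, -0.11 and 0.012. With the neuron score, *Hdac1*, *Hdac5* and *Hdac6* were 0.0513, 0.0415 and 0.0441. Without the rats high in cortical markers, *Hdac1*, *Hdac3*, *Hdac4*, *Hdac5* and *Hdac9* were 0.0527, 0.014, -0.15, 0.00024 and -0.37. Leaving out each rat gave -0.11 to 0.012 for *Hdac1*, -0.0918 to 0.0400 for *Hdac2*, -0.0408 to 0.0386 for *Hdac3*, -0.0186 to 0.14 for *Hdac4*, -0.0578 to 0.0308 for *Hdac5*, -0.0410 to 0.0111 for *Hdac6*, -0.0050 to 0.17 for *Hdac7* and -0.23 to 0.0982 for *Hdac9*. The cause was not tested.

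The 4 partner genes at the nominal p were 7 with library size only, 2 with no filter, 18 with limma-voom, 12 with the oligodendrocyte score, 1 without the rats high in cortical markers, and 2 to 13 with each rat left out (11 without CIE rat 3, 13 without Control rat 10, 2 without CIE rats 1 or 4 or Control rats 9 or 12). The 1 at 5% FDR was 0 with each set of scores as covariates (oligodendrocyte, cortical and striatal, neuron) and without the rats high in cortical markers, and 0 to 1 with each rat left out. The log2 fold change of *Sirt2* was then -0.25, -0.49 and -0.49 with these scores and -0.41 without those rats, against -0.50. Over all genes, the nominal count of 1740 was 3596 with limma-voom and 1347 to 2811 with each rat left out. The 76 at 5% FDR were 265 with DESeq2, 234 with limma-voom, 33 with the oligodendrocyte score, 50 with the cortical and striatal scores, 37 with the neuron score, 15 without the rats high in cortical markers, and 34 to 154 with each rat left out.

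The 1 correlated member pair was 6 with library size only, 2 with group means removed, 0 without the rats high in cortical markers, and 0 to 4 with each rat left out. The 1 pair of a member and a marker score was 4 with library size only, 0 without those rats, and 0 to 2 with each rat left out (0 without CIE rats 1, 2, 4 or 5 or Control rats 7, 8, 10, 11 or 12). No paired analysis was possible because the rats are numbered 1 to 6 and 7 to 12 and share no number. Levels per length were not run, as no transcript lengths of the build were used here. With 492 counts or more per member and rat, the spread between rats limits the intervals more than depth.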
